A study of Mus musculus with 16 samples.

Results

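RNA of Ly6C+ monocytes from subcutaneous MN/MCA1 tumours was compared between C3 knockout and wild-type mice. The series holds 16 libraries, and the 8 whose titles name monocytes entered the comparison: 4 from wild-type mice, numbered 1 to 4, and 4 from C3-/- mice, numbered 6 to 9. All mice are labelled C57BL/6J, and no agent other than the tumour cells is named. Each had received 500000 MN/MCA1 cells, a transplantable mouse fibrosarcoma line, under the skin of the right flank, and tumours were taken on day 21. Monocytes were sorted as CD45+ CD11b+ Ly6G- CD11c- F4/80- Ly6C+ cells, and 5 ng of RNA per mouse went into full-length cDNA libraries that do not mark strand. The age of the mice was not given in the sources used here. Of 30819 genes in the deposited matrix, 12867 were expressed in these 8 libraries and were tested as knockout minus wild type. The mice are separate animals, so the spread between libraries includes that between animals, and each group stands for 1 tumour line and 1 time point.

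C3 is the central protein of the complement cascade: all activation routes cleave it, and its fragments mark surfaces and signal to myeloid cells through C3ar1 and integrin receptors. Ly6C+ monocytes enter tumours from blood through Ccr2 and there become macrophages or monocyte-derived dendritic cells. The latter switch on MHC class II molecules, which show peptides to CD4+ T cells; their genes are turned on together by the coactivator Ciita.

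The labelled cell type was checked against 8 monocyte genes, all of them expressed in all 8 libraries. Ccr2, the chemokine receptor that brings monocytes out of the marrow, averaged 39458 ± 2616 normalized reads in the wild-type mice and 41669.7 ± 4264 in the knockouts (mean ± SD, n = 4 per group). Normalized reads are reads recovered from the deposited values and divided by the size factor of the library. Ly6c2, which encodes the sorting antigen, averaged 16217 ± 2796 in wild type against 14508 ± 2547 in knockout, and Csf1r, the receptor for macrophage colony-stimulating factor, 83569 ± 4836 and 77293 ± 3684. None of these 3 passed the test. Of the 8, 1 was called lower (Itgam, described with the other monocyte genes), 3 had an unadjusted p under 0.05, and 3 passed in the authors' deposited table. Their summed level ran from 693720 to 815456 normalized reads in wild-type mice against 812977 to 961390 in knockout mice, mostly from Lyz2. The neutrophil antigen gene Ly6g had 3.71, 0, 0 and 1.09 normalized reads in the wild-type mice and 2.82, 1.21, 0.965 and 1.62 in the knockouts. Libraries held 18686042 to 29021912 recovered reads, in which 18503 to 19655 genes were detected.

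C3 itself had 16132, 14608, 15268 and 14624 normalized reads in wild-type mice 1 to 4 and 4624, 5204, 5137 and 4735 in knockout mice 6 to 9. All 4 knockout libraries lay below all wild-type libraries (log2 difference -1.22 ± 0.053 SE, limma adjusted p = 8.81e-08), and 32.5% of the wild-type mean remained. C3 lies on the minus strand at chr17:57203970-57228136 (GRCm38, GENCODE M21). Which exons were deleted was not given in the sources used here, and a value per gene cannot place the remaining reads.

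In all, 427 of the 12867 genes passed (limma, Benjamini-Hochberg adjusted p under 0.05), which is 3.32%. Of these, 180 were higher in the knockout (1.4% of those tested) and 247 lower (1.92%). Mean normalized reads differed at least 2-fold for 98 of the higher and 74 of the lower genes. The groups did not overlap in 1429 genes (11.1%), 640 higher (4.97%) and 789 lower (6.13%). The count of called genes was 253 without knockout mouse 8, 256 without knockout mouse 9 and 273 without wild-type mouse 3. In every fit that left out 1 library, 211 genes were called, 96 higher and 115 lower. In the authors' deposited table of this comparison 1329 of 14087 genes passed (9.43%), 536 higher (3.8%) and 793 lower (5.63%). A log2 difference below is on the deposited scale, which draws low values together, and a fold is of mean normalized reads. For called genes the log2 of that fold was a median of 1.41 times the deposited difference.

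**Figure D1:**
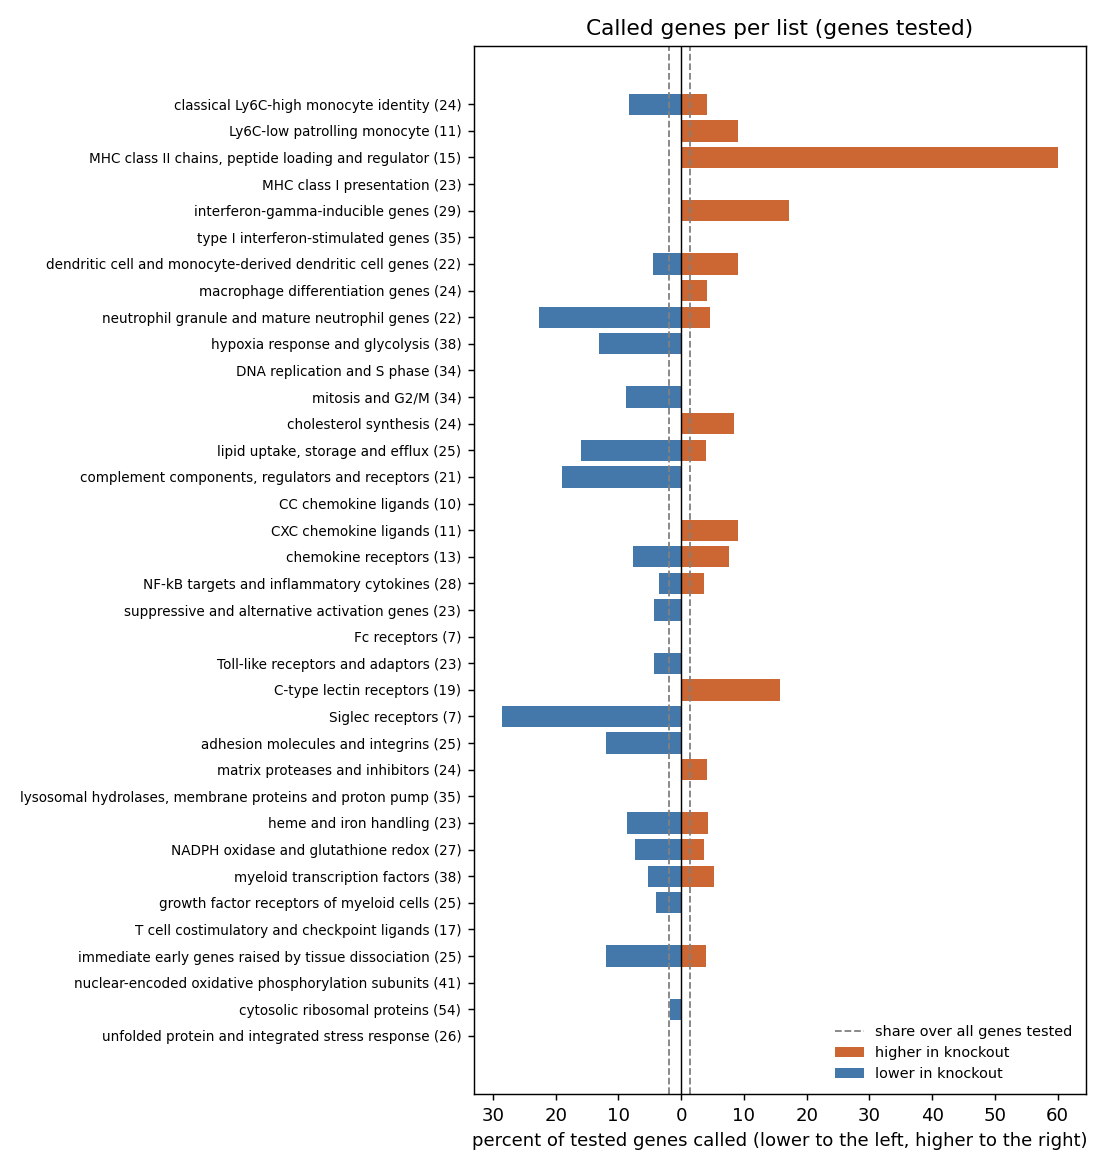
Share of each gene list that was called, in percent of its tested genes (number in brackets), with genes higher in the knockout drawn to the right and lower genes to the left. Dashed lines mark the share over all tested genes, 1.4% higher and 1.92% lower; the MHC class II list reaches 60% higher.

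MHC class II genes formed the group with the highest share of called members. Of 15 tested genes for class II chains, peptide loading and their regulators, 9 were higher and 0 lower, which is 60% called against 3.32% over all genes. Their median log2 difference was 0.81, against -0.01 over all genes tested. The 9 genes were each called in every alternative analysis. They were Ciita, the chain genes H2-Aa, H2-Ab1 and H2-Eb1, the invariant chain gene Cd74, and the peptide exchange genes H2-DMa, H2-DMb1, H2-DMb2 and H2-Ob, of which H2-Ob, H2-DMa and H2-DMb2 were named after their values were seen.

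The bases just before the transcription start of 5 of these genes are shown because the genes moved together and class II promoters are known for a shared X and Y box arrangement. Sequences are from RefSeq on GRCm38.p6, 130 bases ending at the base before the start, read 5′ to 3′ on the strand of the gene. H2-Aa is on the minus strand at chr17:34287824-34287953. The others are on the plus strand, H2-Eb1 at chr17:34305737-34305866, H2-DMb1 at chr17:34153061-34153190, H2-DMb2 at chr17:34145119-34145248 and H2-Ob at chr17:34238775-34238904. Capitals mark matches to TGATTGG, written here as the Y motif, and AACNNATGATG, written as the X motif, where N is any base.
H2-Aa: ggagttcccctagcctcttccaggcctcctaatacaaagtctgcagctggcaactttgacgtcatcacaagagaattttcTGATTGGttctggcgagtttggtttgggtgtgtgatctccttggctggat
H2-Eb1: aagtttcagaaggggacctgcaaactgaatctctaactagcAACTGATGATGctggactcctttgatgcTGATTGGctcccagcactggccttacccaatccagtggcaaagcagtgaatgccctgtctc
H2-DMb1: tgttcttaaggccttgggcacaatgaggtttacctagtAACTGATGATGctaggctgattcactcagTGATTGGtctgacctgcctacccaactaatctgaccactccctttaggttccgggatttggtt
H2-DMb2: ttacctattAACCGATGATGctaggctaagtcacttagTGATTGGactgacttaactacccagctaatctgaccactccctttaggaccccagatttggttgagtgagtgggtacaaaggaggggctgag
H2-Ob: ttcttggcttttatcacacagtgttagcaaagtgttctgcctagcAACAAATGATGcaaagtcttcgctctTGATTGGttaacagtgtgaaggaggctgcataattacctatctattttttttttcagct

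Both motifs were searched on both strands in the 250 bases before 32851 RefSeq starts, and the spellings were chosen after these sequences were seen. AACNNATGATG was read off the promoters of H2-Eb1, H2-DMb1, H2-DMb2 and H2-Ob, with N where they differ, so these 4 hold it by construction. In the printed sequences the matches do not overlap. TGATTGG occurred in 7.23% of promoters and AACNNATGATG in 39 promoters, or 0.119%. Both occurred in 9 promoters of 7 genes. These were H2-Eb1, H2-DMb1, H2-DMb2 and H2-Ob, which rose, Nubp2 and Spsb3, which were tested and not called, and Gm38969, which was not tested. H2-Aa, H2-Oa and H2-Eb2 held the Y motif without the X motif spelling, and H2-DMa held neither at its 2 starts. A match is a description of letters and not evidence of a bound factor. Ciita, H2-Ab1 and Cd74 were not matched in the promoter table.

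Ciita, the coactivator without which class II genes stay off, had 555, 449, 662 and 745 normalized reads in wild-type mice 1 to 4 and 4879.9, 4083, 6642 and 6403 in knockout mice 6 to 9. The lowest knockout value lay above the highest wild-type value, a 9.13-fold higher mean (log2 difference 2.19 ± 0.13 SE, limma adjusted p = 4.3e-06). The factors that bind the X box before Ciita joins them, Rfx5, Rfxank and Rfxap, had log2 differences of 0.07, 0.04 and -0.10 and did not pass, and their groups overlapped.

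The chain genes encode the alpha and beta parts of the molecules that hold the peptide. H2-Aa had 7561, 5273, 9858 and 9355 normalized reads in the wild-type mice and 60217, 51719.8, 85779 and 77587 in the knockouts, an 8.59-fold higher mean (log2 difference 2.07 ± 0.14 SE, limma adjusted p = 1.2e-05). H2-Ab1, which encodes the partner chain, had 17909, 14362, 25526 and 24484 in the wild-type mice and 152699, 126064, 232001 and 188259 in the knockouts (8.5-fold, log2 difference 2.06 ± 0.15 SE, limma adjusted p = 1.98e-05). H2-Eb1, a chain of the second class II molecule, had 5462, 4049, 8179 and 7429 in the wild-type mice and 52313, 47067, 81890 and 72128 in the knockouts (10.1-fold, log2 difference 2.18 ± 0.15 SE, limma adjusted p = 2.49e-05). In all 3 genes the groups were wide apart, knockout mouse 7 was the lowest of its group and knockout mouse 8 the highest. H2-Eb2, a chain gene near H2-Eb1, was not tested, with at most 4.82 normalized reads in any library.

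Cd74 encodes the invariant chain that fills the groove until a peptide is loaded. It had 46728, 37172, 57209 and 60784 normalized reads in the wild-type mice and 275032, 232265, 400403 and 366056 in the knockouts, a 6.31-fold higher mean (log2 difference 1.77 ± 0.13 SE, limma adjusted p = 1.88e-05), again with no overlap. The microRNA gene Mir5107 overlaps Cd74 and also rose (5.15-fold, adjusted p = 4.68e-05). Without strand, its reads cannot be told apart from those of Cd74. Per kilobase of exon, Cd74 was the most abundant of the 9 in both groups, at 30062 normalized reads per kilobase in the wild-type mice and 189660 in the knockouts. H2-Ab1 followed with 8010.1 and 68051 per kilobase, and H2-Ob was the lowest with 10.5 and 42.2.

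The exchange factors load and edit the peptide, and H2-DMa and H2-DMb2 had smaller differences than the chain genes, without a test of that contrast. H2-DMb1 had 2277, 2176, 3112 and 3046 normalized reads in the wild-type mice and 11943, 9412, 15315 and 14154 in the knockouts (4.79-fold, log2 difference 1.54 ± 0.11 SE, limma adjusted p = 2.4e-05). H2-DMa had 4309, 4322, 5475 and 5026 in wild-type mice against 10400.4, 8136, 12692 and 11774 in knockout mice (2.25-fold, log2 difference 0.81 ± 0.096 SE, limma adjusted p = 0.00067). H2-DMb2 had 163, 166, 239 and 225 in wild-type mice against 371, 331, 612 and 393 in knockout mice (2.16-fold, log2 difference 0.74 ± 0.14 SE, limma adjusted p = 0.013). None of the 3 overlapped between the groups. H2-DMb1 and H2-DMb2 are close copies, so the split of reads between them is uncertain. H2-Ob, a chain of the inhibitor of this exchange step, had 54.3, 48.8, 77.01 and 46.9 normalized reads in the wild-type mice and 196, 199, 289 and 223 in the knockouts (4-fold, log2 difference 1.26 ± 0.13 SE, limma adjusted p = 0.000109). Its partner H2-Oa had 19.8, 34.7, 38.5 and 39.2 in wild-type mice against 64.8, 49.4, 72.4 and 51.2 in knockout mice; the groups did not overlap but the gene did not pass (adjusted p = 0.106). Ctss, the protease that trims the invariant chain, averaged 110884 ± 10212 in the wild-type mice and 97733 ± 9449 in the knockouts and did not pass (adjusted p = 0.398).

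All 9 genes of a mouse were read in 1 library, and the order of the mice was much the same from gene to gene. Summed over them, normalized reads ran from 68017 in wild-type mouse 2 to 111140 in wild-type mouse 4, and from 479277 in knockout mouse 7 to 835623 in knockout mouse 8. Knockout mouse 8 was the highest of its group in 9 of the 9 genes and knockout mouse 7 the lowest in 8. In bulk RNA, more cells that carry class II and more class II RNA per cell cannot be told apart. B cells and dendritic cells also carry class II, and their markers were read in the same libraries, although the CD11b+ CD11c- F4/80- Ly6C+ sort is set to leave most of them out. The summed level of 7 B cell markers ran from 1345 to 2118 normalized reads in the wild-type mice and from 2109 to 4305 in the knockouts, mostly from Ighm. Of the 3 tested, 0 passed by limma or voom, 1 had an unadjusted p under 0.05, and 1 passed in the authors' deposited table. Cd79a, Pax5 and Fcmr stayed under 5 in every library. Over 6 conventional dendritic cell markers the sum ran from 3772 to 5224 in the wild-type mice and from 2295 to 3704 in the knockouts, mostly from Itgax, the 1 of 5 tested that was called lower. The call of Itgax was lost without wild-type mice 2, 3 or 4 or knockout mice 8 or 9 or without the filter on low values (adjusted p from 9.65e-05 to 0.12 over all alternatives). Without Itgax, the other 5 summed to between 128 and 443 in wild-type mice against 335 to 388 in knockout mice. Over 8 macrophage markers the sum was larger, from 107684 to 180983 in the wild-type mice and from 116746 to 137496 in the knockouts. All 8 were tested, and 0 passed by limma or voom. Of them, 3 had an unadjusted p under 0.05, and 2 passed in the authors' deposited table. The part of B cells, dendritic cells or macrophages in the class II difference was not tested.

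**Figure D2:**
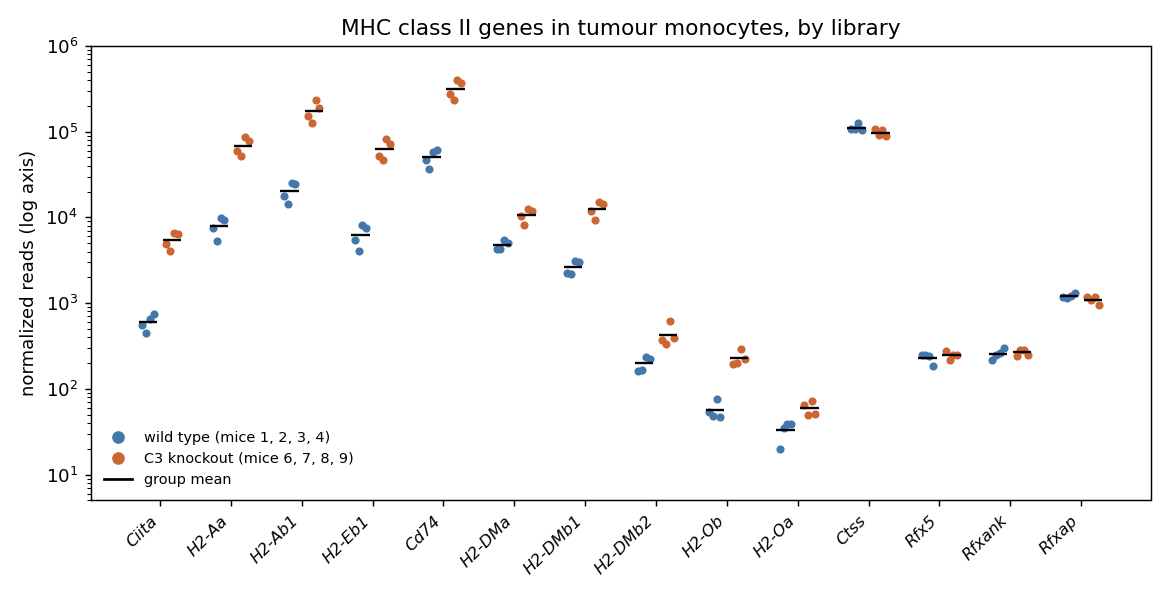
Normalized reads (log axis) of class II genes in each monocyte library, 4 wild-type mice (blue) and 4 C3 knockout mice (orange), with a bar at each group mean. For Ciita through H2-Ob the knockout points lie above all wild-type points, whereas Ctss, Rfx5, Rfxank and Rfxap overlap.

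Of 23 MHC class I presentation genes 0 passed by limma, 5 had an unadjusted p under 0.05, and 0 passed by voom or in the authors' deposited table. Their median log2 difference was 0.10, and 1 had groups that did not overlap, with the knockout higher (4.35% of the list against 4.97% over all genes). H2-K2, which is not in this list and was named after its values were seen, was called higher. H2-K1, a class I heavy chain, averaged 43714 ± 3233 normalized reads in the wild-type mice and 45928 ± 4042 in the knockouts. Tap1, which pumps peptides to class I, averaged 9139 ± 841 in wild type against 11588 ± 2025 in knockout (adjusted p = 0.168).

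Among 29 interferon-gamma-inducible genes 5 rose and 0 fell (17.2% called against 3.32% over all genes). Of the 5, 1, Cxcl11, stayed called in every fit without 1 library. The list median was 0.23, with 23 genes above 0 and 6 below. Cxcl11, a chemokine that attracts activated T cells through Cxcr3, had 853, 657, 736 and 501 normalized reads in the wild-type mice and 6649.6, 3734, 5401 and 4084 in the knockouts. The knockout values were all higher, a 7.23-fold difference in the mean (log2 difference 2.13 ± 0.15 SE, limma adjusted p = 4.26e-05). Its relatives at the same receptor did not pass: Cxcl9 had 1508, 1069, 1056 and 953 in the wild-type mice and 2159.6, 1632, 4768 and 2896 in the knockouts (adjusted p = 0.0796), and Cxcl10 averaged 13460.4 ± 1675 in wild type against 14829 ± 2239 in knockout (adjusted p = 0.614). Whether Cxcl11 differed more than these was not tested. Batf2, an interferon-induced transcription factor, rose 2.18-fold (log2 difference 0.78 ± 0.15 SE, limma adjusted p = 0.0155), with the call lost without knockout mouse 9 (adjusted p from 2.88e-06 to 0.0559 over all alternatives). Slamf8, a myeloid surface receptor, rose 2.89-fold (adjusted p = 0.0161), with the call lost without wild-type mice 2 or 4 or knockout mouse 9 (adjusted p from 5.36e-11 to 0.0608 over all alternatives). Irf1, which drives interferon-gamma responses, rose 1.79-fold (adjusted p = 0.0335), with the call lost without wild-type mice 1, 2 or 4 or knockout mice 8 or 9 (adjusted p from 6.33e-05 to 0.116 over all alternatives). Socs1, a brake on interferon signalling, rose 1.9-fold (adjusted p = 0.0332), with the call lost without wild-type mice 2, 3 or 4 or knockout mice 6 or 9 or without the filter on low values (adjusted p from 0.000513 to 0.107 over all alternatives).

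Of 35 type I interferon-stimulated genes 0 passed by limma and by voom, 6 had an unadjusted p under 0.05, and 1 passed in the authors' deposited table. The list median was 0.01. Isg15, an antiviral ubiquitin-like protein, averaged 4689.7 ± 675 in the wild-type mice and 4583 ± 986 in the knockouts, and Ifit1, which binds viral RNA, 10239 ± 1496 and 9591 ± 1337. Of 10 CC chemokine ligands 0 passed by limma or voom, 1 had an unadjusted p under 0.05, and 1 passed in the authors' deposited table. All 10 had log2 differences above 0, from 0.05 to 0.64.

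Genes of dendritic cells and of C-type lectin receptors were called in small numbers. Of 22 dendritic cell genes 2 rose and 1 fell (13.6% called against 3.32% over all genes). In 8 of the 22 the knockout values were all above the wild-type values (36.4% of the list against 4.97% over all genes). Of 19 lectin receptor genes 3 rose and 0 fell (15.8% called against 3.32% over all genes). Cd209a, a lectin of monocyte-derived dendritic cells, had 12.4, 2.57, 15.03 and 6.54 normalized reads in the wild-type mice and 128, 147, 621 and 789.7 in the knockouts. Every knockout mouse was higher, but mice 8 and 9 had several times the level of mice 6 and 7 (log2 difference 3.66 ± 0.5 SE, limma adjusted p = 0.00418). The call was lost in voom (adjusted p from 3.33e-08 to 0.133 over all alternatives). Cd83, a surface protein of maturing dendritic cells that holds class II at the membrane, had 2702, 2366, 2743 and 2879 in the wild-type mice and 4964, 7331, 11308 and 6991 in the knockouts. Its groups did not overlap either (2.86-fold, log2 difference 0.99 ± 0.15 SE, limma adjusted p = 0.00535). Clec12a, an inhibitory lectin of myeloid cells, averaged 1696 ± 237 in wild type against 2940.2 ± 500.4 in knockout (log2 difference 0.54 ± 0.094 SE, limma adjusted p = 0.00867). Clec4b1, a lectin of dendritic cells, rose 4-fold (adjusted p = 0.0446), with the call lost without wild-type mice 1, 2, 3 or 4 or knockout mice 8 or 9, without the filter on low values or in voom (adjusted p from 1.87e-06 to 0.123 over all alternatives).

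Other dendritic cell genes did not pass in spite of groups that did not overlap. Mgl2, a galactose-binding lectin, had 9.88, 7.70, 15.03 and 20.7 normalized reads in the wild-type mice and 32.9, 32.5, 148 and 81.2 in the knockouts (adjusted p = 0.0596). Irf4, a transcription factor of antigen-presenting cells, had 46.9, 60.3, 61.05 and 44.7 in wild-type mice against 118, 83.2, 69.5 and 148 in knockout mice (adjusted p = 0.0796). Xcr1, the chemokine receptor of cross-presenting dendritic cells, had 32.1, 19.3, 31.9 and 32.7 in wild-type mice against 74.2, 43.4, 50.2 and 61.7 in knockout mice (adjusted p = 0.0703). All 3 were highest in knockout libraries at low levels. Flt3, the growth factor receptor of dendritic cell precursors, overlapped between the groups, with 64.2, 70.6, 181 and 27.3 in the wild-type mice and 162, 186, 213 and 263 in the knockouts (adjusted p = 0.109). Zbtb46, which marks conventional dendritic cells, averaged 48.6 ± 33.04 in wild type against 40.7 ± 12.04 in knockout. Of 17 costimulatory and checkpoint ligand genes 0 passed by limma or voom, 8 had an unadjusted p under 0.05, and 3 passed in the authors' deposited table. Cd86, the costimulatory ligand of Cd28, averaged 5536 ± 159 in the wild-type mice and 6560.2 ± 643 in the knockouts and did not pass (adjusted p = 0.136).

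**Figure D3:**
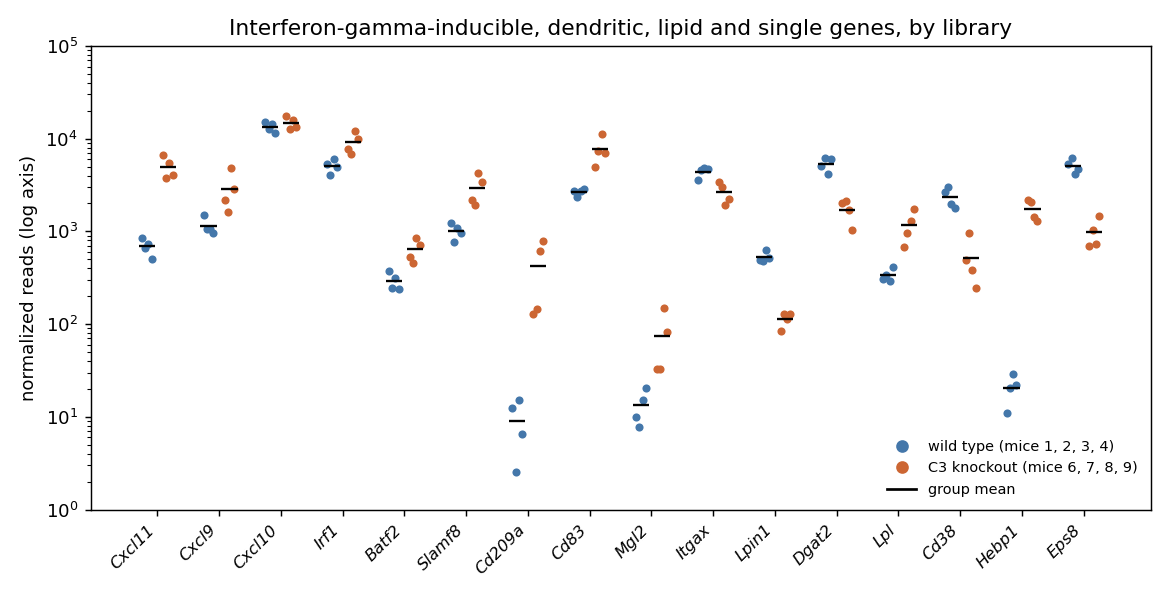
Normalized reads (log axis) of single genes in each monocyte library, 4 wild-type mice (blue) and 4 C3 knockout mice (orange), with a bar at each group mean. Cxcl11, Cd209a, Cd83, Lpl and Hebp1 lie higher in all knockout mice and Lpin1, Dgat2, Cd38 and Eps8 lower; Cxcl10 overlaps.

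Of 24 classical monocyte genes 1 rose and 2 fell (12.5% called against 3.32% over all genes). Clec12a was the one that rose. Hp, the hemoglobin scavenger haptoglobin, fell from 9434 ± 549.8 to 6863 ± 616 normalized reads (log2 difference -0.38 ± 0.062 SE, limma adjusted p = 0.00563). Itgam, the CD11b chain of complement receptor 3, averaged 9446 ± 1344 in wild type against 6107 ± 952 in knockout (log2 difference -0.46 ± 0.092 SE, limma adjusted p = 0.0195), with the call lost without wild-type mouse 4 or knockout mouse 8 (adjusted p from 1.13e-05 to 0.057 over all alternatives). Of 11 genes of Ly6C-low patrolling monocytes 1 rose and 0 fell (9.09% called against 3.32% over all genes). The list leaned the other way, with 2 genes above 0, 9 below and a median log2 difference of -0.16. In 2 of the 11 all knockout values lay below wild type (18.2% against 6.13% over all genes). The gene that rose was Pglyrp1, a peptidoglycan-binding protein, with 214, 266, 397 and 344 normalized reads in the wild-type mice and 734, 660.4, 583 and 583 in the knockouts (log2 difference 0.87 ± 0.14 SE, limma adjusted p = 0.00507). Of 24 macrophage differentiation genes 1 rose, Lpl (4.17% called, near the 3.32% over all genes). Of 23 suppressive genes 1 fell, Cd38 (4.35% called, near the 3.32% over all genes). Cd38, an enzyme that consumes NAD, had 2666, 2991, 1955 and 1770.3 in the wild-type mice and 494, 957, 382 and 242 in the knockouts, with no overlap (log2 difference -1.59 ± 0.25 SE, limma adjusted p = 0.012). Arg1, which depletes arginine, averaged 38976 ± 8097 in wild type against 28986 ± 9338 in knockout and did not pass (adjusted p = 0.32).

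Of 22 neutrophil and granule genes tested, 1 rose and 5 fell (27.3% called against 3.32% over all genes). Of these 6, 3 stayed called in every fit without 1 library. Retnlg, a resistin-like secreted protein, rose, with 19.8, 6.42, 29.1 and 69.8 normalized reads in the wild-type mice and 151, 431, 224 and 283 in the knockouts (log2 difference 2.39 ± 0.38 SE, limma adjusted p = 0.00794). Wfdc21, a secreted protein of the whey acidic protein family, fell, with 173, 319.6, 183 and 227 in the wild-type mice and 21.6, 42.2, 31.8 and 4.87 in the knockouts (log2 difference -2.50 ± 0.34 SE, limma adjusted p = 0.00256). Prtn3, the granule protease proteinase 3, fell from 410.4 ± 29.5 to 175 ± 49.4 (log2 difference -0.99 ± 0.15 SE, limma adjusted p = 0.00268), but the call was lost in the authors' deposited table (adjusted p from 0.00176 to 0.24 over all alternatives). In these 3 genes the groups did not overlap. Lrg1, a secreted leucine-rich glycoprotein, fell too (adjusted p = 0.0275), with the call lost without wild-type mice 1 or 4 or knockout mice 6, 8 or 9 (adjusted p from 0.0198 to 0.0899 over all alternatives). Il1r2, a decoy receptor for interleukin 1, fell (adjusted p = 0.045), with the call lost without wild-type mice 2, 3 or 4 or knockout mice 6, 8 or 9 or with TMM scaling (adjusted p from 0.0004 to 0.113 over all alternatives). Fpr1, the receptor for formyl peptides, also fell (adjusted p = 0.0435), with the call lost without wild-type mice 1, 2, 3 or 4 or knockout mice 6 or 8, in the authors' deposited table or without the filter on low values (adjusted p from 0.0156 to 0.114 over all alternatives).

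Some granule genes were high in 2 knockout libraries alone. Ngp, a protein of secondary granules, had 3.71, 0, 0 and 0 normalized reads in the wild-type mice and 1.88, 4483, 3261 and 0 in the knockouts, high in mice 7 and 8 and under 5 in the rest. Camp, the cathelicidin peptide, had 1.24, 2.57, 0.939 and 1.09 in wild-type mice against 0.939, 195, 359.9 and 0.812 in knockout mice, and Ltf, lactoferrin, 9.88, 14.1, 6.57 and 16.4 in wild-type mice against 6.58, 1034, 461 and 7.31 in knockout mice, both high in the same 2 mice. Ngp and Camp were not tested, and Ltf did not pass (adjusted p = 0.5). S100a8, a calcium-binding alarmin, had 1289, 2559.6, 1477 and 1802 in the wild-type mice and 319, 856, 465 and 27.6 in the knockouts and did not pass (adjusted p = 0.187) although its groups did not overlap. Its partner S100a9 had 235, 755, 401 and 474 in wild-type mice against 60.1, 928, 414 and 4.06 in knockout mice (adjusted p = 0.589). Over 10 neutrophil markers the summed level ran from 8187 to 12196 normalized reads in the wild-type mice and from 7068 to 15507 in the knockouts. Ly6g was under 5 in every library. Without knockout mouse 7 the count of called genes over all those tested was 474 in place of 427, and without knockout mouse 8 it was 253. Without knockout mice 6 or 9, in which Ngp, Camp and Ltf were low, it was 434 and 256. The part of neutrophil RNA in these results was not tested.

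**Figure D4:**
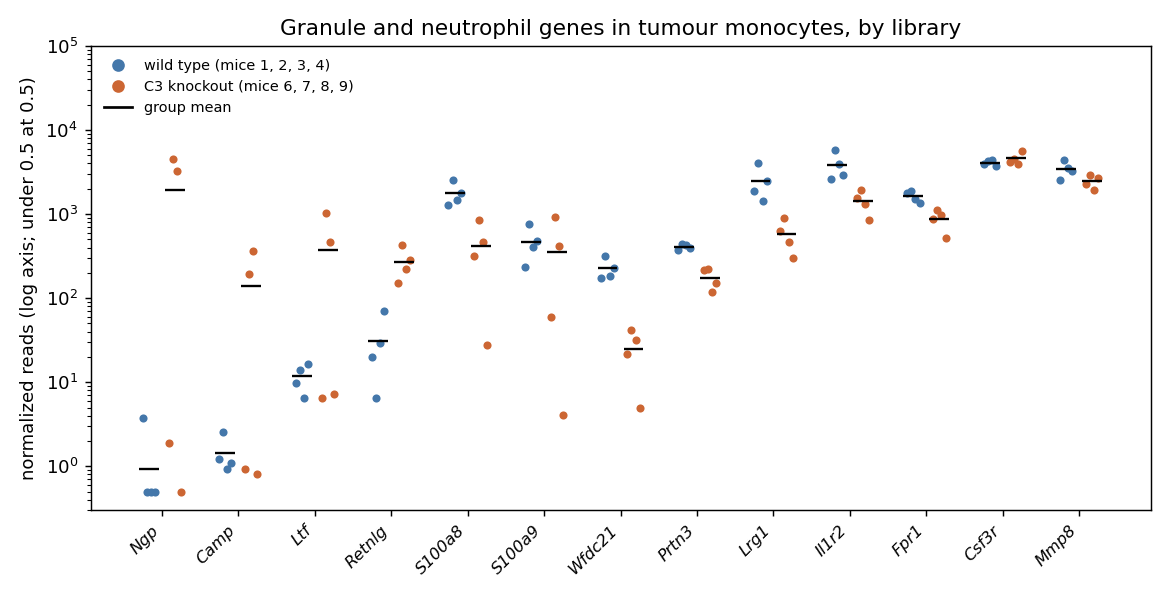
Normalized reads (log axis, values under 0.5 drawn at 0.5) of granule and neutrophil genes in each monocyte library, 4 wild-type mice (blue) and 4 C3 knockout mice (orange), with a bar at each group mean. Ngp, Camp and Ltf are high in knockout mice 7 and 8 alone, whereas Wfdc21, Prtn3 and Lrg1 are lower in all 4 knockout mice.

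Of 25 lipid handling genes tested, 4 fell and 1 rose (20% called against 3.32% over all genes). Of these 5, 4 stayed called in every fit without 1 library. Lpin1, a phosphatidate phosphatase on the route to triglyceride, had 493, 480.1, 634 and 517 normalized reads in the wild-type mice and 84.5, 129, 113 and 129 in the knockouts (log2 difference -1.59 ± 0.11 SE, limma adjusted p = 5.61e-06). Dgat2, which makes triglyceride in the last step, had 5115, 6218, 4150.3 and 6100.1 in wild-type mice against 2002, 2119, 1679.7 and 1029 in knockout mice (log2 difference -1.30 ± 0.17 SE, limma adjusted p = 0.00315). Both fell with wide gaps between the groups, to 21.5% and 31.6% of the wild-type mean. Nr1h3, the oxysterol-sensing nuclear receptor LXR alpha, fell from 1073 ± 70.8 to 725 ± 68.1 (log2 difference -0.40 ± 0.066 SE, limma adjusted p = 0.00507). Its target Abcg1, a cholesterol exporter, fell from 904 ± 87.8 to 647 ± 45.97 (adjusted p = 0.0193), with the call lost without wild-type mice 2, 3 or 4 or knockout mice 8 or 9 or without the filter on low values (adjusted p from 0.000798 to 0.0639 over all alternatives). In the other direction, Lpl, which frees fatty acids from lipoproteins, had 310.0, 341, 289 and 418 in the wild-type mice and 671, 959, 1289 and 1757 in the knockouts (3.44-fold, log2 difference 1.14 ± 0.18 SE, limma adjusted p = 0.00852). The knockout mice were all higher and spread more than the wild-type mice.

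Of 24 cholesterol synthesis genes 21 lay above 0, with a median of 0.14. Of the 24, 2 rose and 0 fell (8.33% called against 3.32% over all genes). These were Idi1, an isoprenoid isomerase (0.46, adjusted p = 0.0222), and Cyp51, a sterol demethylase (0.27, adjusted p = 0.0477). The call of Idi1 was lost without wild-type mice 2 or 4 or knockout mice 8 or 9 or without the filter on low values (adjusted p from 0.000813 to 0.0719 over all alternatives). That of Cyp51 was lost without wild-type mice 1, 2, 3 or 4 or knockout mice 6, 8 or 9, without the filter on low values or in voom (adjusted p from 0.0224 to 0.12 over all alternatives).

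Of 38 genes of the hypoxia response and glycolysis 5 fell and 0 rose (13.2% called against 3.32% over all genes). Of the 38, 35 lay below 0, and 1 of the 5 stayed called in every fit without 1 library. That gene was Slc16a3, the lactate exporter, with 16436, 21947, 17030.4 and 20673 normalized reads in the wild-type mice and 11647, 13674, 11996 and 9979 in the knockouts, and no overlap (log2 difference -0.51 ± 0.087 SE, limma adjusted p = 0.00734). Egln3, an oxygen-sensing prolyl hydroxylase, fell from 3398 ± 673 to 1482 ± 556 (adjusted p = 0.0261), with the call lost without wild-type mice 2, 3 or 4 or knockout mice 6 or 8 (adjusted p from 0.00273 to 0.0809 over all alternatives). Vegfa, the angiogenic growth factor, averaged 23216 ± 3119 in wild type against 17879.6 ± 4484 in knockout and did not pass (adjusted p = 0.254). Of 41 nuclear-encoded oxidative phosphorylation genes 0 passed by limma or voom, 2 had an unadjusted p under 0.05, and 2 passed in the authors' deposited table. Their median log2 difference was -0.04.

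In the cell cycle lists, 3 of 34 mitotic genes fell (8.82% called against 3.32% over all genes). Of 34 DNA replication genes 0 passed by limma or voom, 6 had an unadjusted p under 0.05, and 5 passed in the authors' deposited table. All 34 mitotic genes lay below 0, with a median log2 difference of -0.55, and 30 of 34 replication genes did, with a median of -0.12. Nusap1, a spindle protein, had 277, 179.7, 176 and 112 normalized reads in the wild-type mice and 60.1, 84.4, 76.2 and 50.4 in the knockouts (log2 difference -0.86 ± 0.17 SE, limma adjusted p = 0.0151), with the call lost without knockout mouse 9 (adjusted p from 7.06e-07 to 0.0526 over all alternatives). The spindle checkpoint genes Bub1b (-0.48, adjusted p = 0.0179) and Bub1 (-0.69, adjusted p = 0.0461) also fell. The call of Bub1b was lost without wild-type mouse 1 or knockout mice 8 or 9 (adjusted p from 2.53e-05 to 0.0589 over all alternatives), and that of Bub1 without wild-type mice 1 or 3 or knockout mice 6, 8 or 9 or without the filter on low values (adjusted p from 6.12e-05 to 0.139 over all alternatives). Mki67, the proliferation antigen, averaged 315 ± 92.3 in wild type against 205 ± 30.4 in knockout and did not pass (adjusted p = 0.126).

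Of 21 complement genes 4 fell and 0 rose (19% called against 3.32% over all genes). That share counts C3, the gene knocked out, whose fall was set by the design. Besides C3 the called genes were C5ar2, a second receptor for the C5a fragment, Itgam, and Itgax, the CD11c chain of complement receptor 4. Of these, C5ar2 alone stayed called in every fit without 1 library. C5ar2 had 645, 675, 706 and 639.9 normalized reads in the wild-type mice and 435, 503, 396 and 442 in the knockouts, and its groups did not overlap (log2 difference -0.42 ± 0.069 SE, limma adjusted p = 0.00561). C3ar1, the receptor for the C3a fragment, averaged 12178 ± 1776 in wild type against 11318 ± 1337 in knockout (adjusted p = 0.714). Cfb, the alternative pathway protease, averaged 434 ± 123 in wild type against 399.8 ± 90.1 in knockout (adjusted p = 0.869). Itgax had 3564, 4575, 4781 and 4766 in the wild-type mice and 3368, 3045, 1925 and 2256 in the knockouts (log2 difference -0.53 ± 0.12 SE, limma adjusted p = 0.0386), with the call lost without wild-type mice 2, 3 or 4 or knockout mice 8 or 9 or without the filter on low values (adjusted p from 9.65e-05 to 0.12 over all alternatives). Itgam no longer passed the test without wild-type mouse 4 or knockout mouse 8 (adjusted p from 1.13e-05 to 0.057 over all alternatives).

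Among 7 Siglec receptors 2 fell and 0 rose (28.6% called against 3.32% over all genes). The list was mixed, with 3 genes above 0 and 4 below. Groups did not overlap in 2 with the knockout higher (28.6% against 4.97% over all genes) and in 2 with it lower (28.6% against 6.13%). Cd22, known as a B cell inhibitory receptor, had 377, 232, 370.0 and 367 normalized reads in the wild-type mice and 106, 139, 57.9 and 51.2 in the knockouts (log2 difference -1.42 ± 0.21 SE, limma adjusted p = 0.00356), while the B cell gene Ms4a1 had 18.5, 5.13, 6.57 and 6.54 in wild-type mice against 11.3, 4.82, 7.72 and 8.12 in knockout mice. Siglece, an inhibitory receptor of myeloid cells, fell from 1479 ± 141 to 1053 ± 101 (adjusted p = 0.0182), with the call lost without wild-type mice 2, 3 or 4 or knockout mice 8 or 9 (adjusted p from 1.59e-05 to 0.0614 over all alternatives). Among 13 chemokine receptors 1 rose and 1 fell (15.4% called against 3.32% over all genes). Ccr3, the eotaxin receptor, had 7.41, 2.57, 19.7 and 20.7 in wild-type mice against 39.5, 62.7, 101 and 79.6 in knockout mice, all knockout values higher (log2 difference 1.47 ± 0.26 SE, limma adjusted p = 0.00852). Ackr3, a scavenger of Cxcl12 and Cxcl11, fell from 602 ± 60.3 to 245 ± 143 (adjusted p = 0.0435), with the call lost without wild-type mice 1, 2, 3 or 4 or knockout mice 6, 8 or 9 (adjusted p from 0.000612 to 0.122 over all alternatives). Of 24 matrix protease genes 1 passed (4.17% called, near the 3.32% over all genes). It was Plau, the urokinase protease that activates plasmin, with 138, 181, 113 and 104 in the wild-type mice and 350.4, 351, 389.8 and 339 in the knockouts (log2 difference 0.97 ± 0.11 SE, limma adjusted p = 0.000387).

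Of 38 myeloid transcription factors 2 rose and 2 fell (10.5% called against 3.32% over all genes). Egr1, an immediate early factor of monocyte differentiation, fell from 21242 ± 3009 to 12015 ± 2265 normalized reads (log2 difference -0.62 ± 0.11 SE, limma adjusted p = 0.00827), and Nr1h3 fell as given above. Egr1 is also among genes raised by tissue dissociation, of which 1 of 25 rose and 3 fell (16% called against 3.32% over all genes). The part of tissue handling was not tested. Id2, which restrains E proteins, rose from 9857 ± 1823 to 17381 ± 3874 (adjusted p = 0.029), with the call lost without wild-type mice 1, 3 or 4 or knockout mice 7 or 8 (adjusted p from 9.77e-05 to 0.0807 over all alternatives). Irf1, the other that rose, lost its call without wild-type mice 1, 2 or 4 or knockout mice 8 or 9 (adjusted p from 6.33e-05 to 0.116 over all alternatives).

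Of 23 heme and iron genes 1 rose and 2 fell (13% called against 3.32% over all genes). Hebp1, a heme-binding protein whose end peptide attracts myeloid cells, had 11.1, 20.5, 29.1 and 21.8 normalized reads in the wild-type mice and 2202, 2055, 1442 and 1305 in the knockouts. It was nearly off in all wild-type mice and on in all knockout mice, an 84.8-fold difference (log2 difference 3.97 ± 0.14 SE, limma adjusted p = 1.74e-08). Hfe, a regulator of iron uptake, fell from 2158 ± 407 to 1189 ± 111 (log2 difference -0.59 ± 0.09 SE, limma adjusted p = 0.00366). Over 7 red blood cell markers the summed level ran from 2949 to 7181 normalized reads in the wild-type mice and from 580 to 2922 in the knockouts. Of the 5 tested, 0 passed by limma or voom, 4 had an unadjusted p under 0.05, and 2 passed in the authors' deposited table. The part of that RNA in these results was not tested. Gsto1, a glutathione transferase, fell from 2903 ± 452 to 1481 ± 170 (log2 difference -0.70 ± 0.086 SE, limma adjusted p = 0.000745). Of 35 lysosomal genes 0 passed by limma or voom, 10 had an unadjusted p under 0.05, and 7 passed in the authors' deposited table. In 9 of the 35 all knockout values lay below wild type (25.7% against 6.13% over all genes). Of 26 genes of the unfolded protein response 0 passed by limma or voom, 3 had an unadjusted p under 0.05, and 3 passed in the authors' deposited table. Of 7 Fc receptor genes 0 passed by limma, by voom or in that table, and 2 had an unadjusted p under 0.05.

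Among the 15 largest rises and 15 largest falls by log2 difference, Trim12a, a member of the Trim5 family of antiviral genes, fell the most: it had 778, 720.1, 749 and 642 normalized reads in the wild-type mice and 1.88, 7.23, 0.965 and 2.44 in the knockouts (log2 difference -4.51 ± 0.14 SE, limma adjusted p = 4.24e-09). Trim34b, a neighbour, had 6.18, 3.85, 2.82 and 1.09 in wild-type mice against 145, 169, 149.5 and 154 in knockout mice and rose (log2 difference 2.99 ± 0.15 SE, limma adjusted p = 3.19e-07). Gvin1, a large interferon-inducible GTPase, had 90.2, 83.4, 56.4 and 62.1 in the wild-type mice and 0, 0, 0 and 0 in the knockouts (adjusted p = 1.19e-06). These genes have close relatives in sequence, so reads can be split between copies and their values are uncertain. Eps8, an actin regulator, had 5354, 6196, 4193 and 4655 in the wild-type mice and 692, 1039, 730.3 and 1450.3 in the knockouts (log2 difference -1.73 ± 0.16 SE, limma adjusted p = 0.000208). Smarcd1, a chromatin remodelling subunit, fell to 12.7% of the wild-type mean (adjusted p = 2.98e-06) and Nucb2, a calcium-binding precursor of nesfatin, to 27.4% (adjusted p = 1.15e-06). Gprc5b, an orphan receptor, rose 11.9-fold (adjusted p = 1.2e-05) and Tmem242, a mitochondrial assembly factor, 4.86-fold (adjusted p = 8.59e-06). In each of these 8 genes the 2 groups did not overlap.

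Called genes were spread unevenly over the chromosomes. Over the autosomes and X, their share ran from 0.976% on chromosome 9 to 7.57% on chromosome 7, where 74 of 977 tested genes were called. In 16 windows of 5 Mb that held at least 5 called genes each, there were 130 called of 746 tested. These windows held 30.4% of called genes, 5.80% of tested genes, and 10 of the 15 named rises and 10 of the 15 named falls. The windows were picked by these same calls. A higher share of called genes inside them, and a lower share outside, follows from that choice and is no test of clustering. On chromosome 6 from 135 to 140 Mb 11 of 22 tested genes were called, among them Hebp1, Gucy2c and Eps8, 7 higher and 4 lower. On chromosome 7 from 100 to 105 Mb 13 of 54 were called, with Trim12a, Trim5, Trim6 and Trim34b, and from 115 to 120 Mb 11 of 26, with Nucb2, Gprc5b, Plekha7 and the ribosomal gene Rps13. Lpin1 lay in a window on chromosome 12 with 6 of 15 called, and Cxcl11 in a window on chromosome 5 with 5 of 34. Itgam and Itgax lay in a window on chromosome 7 with 10 of 100. C3 lay in one on chromosome 17 with 5 of 49, and Lrg1, given above with the granule genes, lay in that same window. Hfe lay in a window on chromosome 13 with 5 of 37 and Gsto1 in one on chromosome 19 with 7 of 47.

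The class II genes on chromosome 17 lay between 30 and 35 Mb, where 10 of 101 tested genes were called, 9 higher and 1 lower. The higher genes were H2-Aa, H2-Ab1, H2-Eb1, H2-DMa, H2-DMb1, H2-DMb2 and H2-Ob, and besides these H2-K2 and the predicted gene Gm20513. The lower gene was Abcg1. Ciita on chromosome 16 and Cd74 on chromosome 18 lay in no such window. Outside the 16 windows 297 of 12121 genes were called (2.45%), 126 higher and 171 lower. In this design, differences that follow from the loss of C3 cannot be told apart from other inherited differences between the 2 groups of mice.

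**Figure D5:**
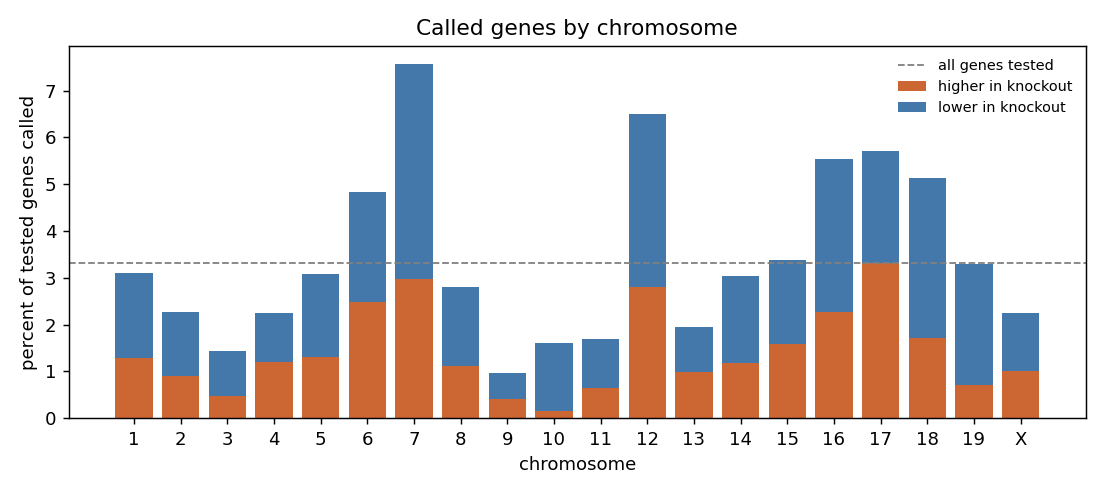
Percent of tested genes that were called on each autosome and on X, split into genes higher (orange) and lower (blue) in the knockout, with a dashed line at the 3.32% of all genes tested. Of the chromosomes drawn, 7 stands highest at 7.57% and 9 lowest at 0.976%.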

How the data were processed

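The 8 monocyte libraries of a 16-library RNA-seq series were used. Per the submitters' processing notes, the tools were STAR 2.7.2b, bcl2fastq 2.19.0.316 and DESeq2, on build GRCm38. What each did was not given in the sources used here. Deposited by the authors were log2 values per gene, which follow a regularized logarithm although no header names it. The table of the authors' monocyte comparison holds, per the file headers, a base mean (a signal: mean size-factor-scaled reads over all 16 libraries), log2 fold changes, a Wald score, and p-values as deposited by the authors. No sample of another series was present (0 columns).

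The transform was inverted with that base mean, over all 16 libraries, to give reads. The deposited values follow a transform over all 16 libraries, which draws each value towards the mean of its gene. Macrophage libraries therefore also bear on the log2 values tested here, although none was a sample in the limma fit. Of the recovered values 83.9% lay within 0.05 of a whole read. Above a base mean of 1000 the share was 47.0%, with a median distance of 0.00197% of the value. Rounded reads gave the base mean within 1% for 99.9% of 20443 genes. Below a base mean of 100 the inversion was solved to return the base mean, so there this holds by construction apart from rounding. These reads served for levels and for voom. Because the unit was log2, limma 3.58.1 (R 4.3.3; empirical Bayes with trend and robust estimation) was run on the deposited values. Genes needed a linear value of at least 10 in at least 4 libraries, and those with an adjusted p under 0.05 were called. The test was checked on simulated data for this comparison over 12867 genes: it recovered 50%, 91% and 100% of genes changed by a log2 of 0.5, 1 and 2. An exact permutation test of 4 against 4 cannot go below 0.0286, so no single-gene permutation test was used. An SD is between mice. An SE is that of the log2 difference in limma, in which the spread between mice is drawn towards a trend over all genes.

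Named genes were C3, the 15 largest rises and 15 largest falls among called genes without overlap, with a mean of at least 50 in the higher group and no predicted, pseudogene or mitochondrial symbol. Up to 6 called members per list with the smallest adjusted p were added, with members that define a list's role, and neighbours of named genes. Members and lists were chosen with earlier results of these data known. Alternatives were no filter, a filter at 50, TMM scaling, voom on recovered reads, the authors' table, and leaving out each library. Coordinates of genes are from GENCODE M21 and promoters from RefSeq, GRCm38.p6. Python 3.11.15 and pandas 2.3.3 were used for tables.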

Additional observations from a re-analysis of the deposited data

Results flagged for a closer look

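In 5 of 186 groups of 4 values checked, over 79 named genes and 14 marker sums, 1 library lay far from the other 3 of its group, by the size of the gap to its nearest neighbour relative to the whole range. Chance alone marks about 1 in 20 such groups. All values are normalized reads. Cd22 was 232 in wild-type mouse 2 against 367 to 377 in the others, and still above all knockout mice. Itgax was 3564 in wild-type mouse 1 against 4575 to 4781, closest of its group to the knockout values. Tmem242 was 201 in wild-type mouse 3 against 124 to 135. Rps13 was 1432 in knockout mouse 6 against 1104 to 1148. Mgst1, a microsomal glutathione transferase, was 4061 in knockout mouse 7 against 4379 to 4409. Its call as higher in the knockout (log2 difference 0.27 ± 0.062 SE, limma adjusted p = 0.038) was lost without wild-type mice 2, 3 or 4 or knockout mice 6, 8 or 9, in the authors' deposited table or without the filter on low values (adjusted p from 0.0321 to 0.356 over all alternatives).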

How the results depend on the processing

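The count of called genes was 427 and stayed within 1.5 times that under no filter (300), a filter at 50 (383), TMM scaling (435, of which 213 were higher) and voom (401). The authors' deposited table gave 1329 genes, 417 of them among the 427 and all 417 in the same direction. Leaving out 1 library gave 253 to 474. C3 was called lower in each alternative, with log2 differences from -1.62 to -1.19 and an adjusted p of at most 1.82e-06. Of the other 78 named genes 43 kept their call in each alternative run for them and 35 lost it in at least 1, and no direction reversed. The filter at 50 gave no value for 6 of the 43: Ccr3, Gucy2c, Gvin1, Plekha7, Trim6 and Zfp125. No paired analysis was possible because wild-type mice (1 to 4) and knockout mice (6 to 9) share no replicate numbers. Genes under the filter on low values, such as Ngp, Camp and H2-Eb2, have levels but no test.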

Other observations

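Other genes that passed and kept their call in each alternative were chosen here after their values were seen. Gpr183, a receptor that guides immune cells towards oxysterols, had 1896, 2053, 2562 and 2192 normalized reads in the wild-type mice and 4725, 4206, 4469 and 4028 in the knockouts (log2 difference 0.71 ± 0.068 SE, limma adjusted p = 7.51e-05). Il15, a cytokine that sustains NK and memory T cells, rose from 578 ± 72.99 to 944 ± 146 (log2 difference 0.52 ± 0.094 SE, limma adjusted p = 0.0106). In both genes the groups did not overlap. Among genes that fell, Sgk1, a kinase raised by glucocorticoids, went from 25459 ± 2946 to 14750 ± 2476 (log2 difference -0.57 ± 0.092 SE, limma adjusted p = 0.00536), and Mt1, a metal-binding metallothionein, from 4450.5 ± 499 to 2625 ± 357 (log2 difference -0.53 ± 0.075 SE, limma adjusted p = 0.00213). Cd81, a tetraspanin, fell from 2863 ± 185 to 1723 ± 257 (log2 difference -0.47 ± 0.068 SE, limma adjusted p = 0.00254). P2ry12, an ADP receptor, fell from 1034 ± 91.2 to 605 ± 121 (log2 difference -0.54 ± 0.092 SE, limma adjusted p = 0.00643). The noncoding RNA gene Gas5, host of small nucleolar RNAs, rose from 1155 ± 10.99 to 1612 ± 161 (log2 difference 0.34 ± 0.061 SE, limma adjusted p = 0.00966).

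Markers of other cells passed at low levels. Epcam, an epithelial adhesion protein, had 1.24, 2.57, 0.939 and 4.36 normalized reads in the wild-type mice and 33.8, 31.3, 19.3 and 23.6 in the knockouts (adjusted p = 0.000938 by limma), while Krt5, Krt14 and Krt8 stayed under 5 in every library. The summed level of the 5 epithelial markers present ran from 508 to 1015 in wild-type mice against 391 to 515 in knockout mice, mostly from Cdh1, an adhesion protein that did not pass (adjusted p = 0.168 by limma). Kdr, the endothelial receptor for Vegfa, had 190.2, 176, 159 and 85.03 in wild-type mice against 409.6, 334, 289 and 349 in knockout mice (adjusted p = 0.0106 by limma). The summed level of 6 endothelial markers ran from 463 to 680 in the wild-type mice and from 656 to 741 in the knockouts. That sum includes Kdr, so it is not a separate reading. Kdr was the 1 called of 4 endothelial markers tested, and Epcam the 1 called of 3 epithelial markers tested.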
